A study of Homo sapiens with 12 samples.

Results

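The histone genes make the proteins around which DNA is wound. 79 of the 54675 probe sets on the array had a platform gene symbol that begins, in current naming, with H1-, H2AC, H2BC, H3C or H4C, or carried an older HIST1 to HIST4 symbol. Of these, 78 read histone genes and 1 read the antisense RNA H1-10-AS1, which is described apart. The 78 comprised 13 probe sets for the linker histone H1, 16 for H2A, 20 for H2B, 11 for H3, 16 for H4 and 2 that named both H2A and H3 genes. They named 69 genes, 50 of them alone on at least 1 probe set. Of the 78, 58 named 1 gene and 20 named several, because histone genes of one class are nearly identical in their coding sequence. Genes on chromosome 6, which holds the large histone cluster, accounted for 59 of the 78.

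Most of these genes are replication-dependent: they are switched on in S phase, when new DNA needs new nucleosomes. Their mRNAs mostly end in a stem-loop in place of a poly(A) tail. The stem-loop-binding protein SLBP carries the mRNA through processing and translation, and NPAT, a substrate of cyclin E and CDK2, drives histone transcription. H1-10 and the replacement histones are made throughout the cell cycle from polyadenylated mRNAs. Per the labels' protocols the RNA went through the Affymetrix Two-Cycle labelling, which primes from oligo(dT), so the arrays favour histone transcripts that carry a poly(A) tail.

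The study compared cells with and without a miR-16 sponge, a transcript with many binding sites that takes up the microRNA. Mature miR-16-5p is shown here because its seed, bases 2 to 8 in capitals, pairs with the binding sites of a sponge:
miR-16-5p: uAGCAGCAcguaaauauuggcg
RefSeq places it in MIR16-1 on chromosome 13 and in MIR16-2 on chromosome 3. There were 4 groups of 3 arrays: MMS1 with a control (mock) sponge, MMS1 with the miR-16 sponge, RPMI8226 with the control sponge and RPMI8226 with the miR-16 sponge. The labels call both lines multiple myeloma and the miR-16 sponge groups miR16 KO, although the treatment described is a sponge and not a deletion. All 4 groups were stable lentiviral pools that also carried GFP, sorted by flow cytometry, expanded and lysed at 1 time point. RPMI8226 is also written RPMI and RPMI826 in the labels. They mention parallel flasks but tie no array to one, so p-values measure the spread between arrays, which may be technical. Sponge transcript and mature miR-16 levels were not analysed here. As these are bulk samples, fewer cells in S phase and less histone mRNA per cell cannot be told apart.

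Erythroid markers were bright on all arrays and 3 of 14 plasma cell markers lay near the lower bound, against the labelled cell type. The array medians of the 14 plasma cell genes lay between 5.71 and 6.21 log2 in all groups. Array medians over all probe sets were 5.8 to 5.9. Array means of the 14 ran from 6.11 to 6.34, so others of them were brighter. The BCMA receptor TNFRSF17 (mean 4.46), the joining chain JCHAIN (4.20) and CD38 (4.91) lay under 5 on a scale whose lower bound is 4. Of 14 erythroid genes measured, the array medians lay between 8.49 and 9.49. The embryonic globins HBE1 and HBZ had means of 14.16 and 13.05. MMS1 and RPMI8226 are used below as the labels' names. The array of MMS1 sponge replicate 1 also stood apart in its mean 18S signal, 7.84 against 9.56 to 11.14 on the others. In MMS1 the actin 3'-to-5' difference was 0.08 to 0.21 on the control arrays and 0.23 to 0.49 on the sponge arrays, which did not overlap. The GAPDH 3'-to-5' difference went the other way there, from 0.06 to 0.12 with the control and from -0.03 to 0.06 with the sponge.

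Levels below are the deposited log2 signals. A change is a difference of group means in log2, tested with limma on all 12 arrays over 54613 probe sets. A member is called when its Benjamini-Hochberg adjusted p is under 0.05. Because probe sets differ in affinity, levels of different probe sets are not a measure of relative RNA amount; they serve here only to place a signal on the scale above its lower bound. The means of the 78 lay between 4.37 and 10.69, and 42 lay above the median level of all probe sets tested. On 4 of the 78, at least 1 array was at the lower bound.

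In MMS1 the miR-16 sponge went with lower H2BC11/H2BC8 and H1-10 signal and with a small, mixed set of other changes. Of 78 histone probe sets 7 fell and 2 rose. Over all probe sets tested, 6.11% fell and 4.20% rose, against 8.97% and 2.56% of the histone probe sets. The median change of the 78 was -0.065, beside -0.022 over all probe sets. The 3 sponge arrays lay below all 3 control arrays for 19 members (24.4%, and 15.2% of all probe sets). They lay above them for 8 members (10.3%, and 11.6% of all probe sets).

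H2BC11 and H2BC8 encode core histone H2B and share 2 probe sets. The first, 210387_at, read 7.33, 7.23 and 7.26 on the MMS1 control arrays and 6.70, 6.36 and 6.10 on the sponge arrays. In RPMI8226 it read 6.88, 6.97 and 7.11 with the control sponge and 6.77, 6.89 and 6.88 with the miR-16 sponge. The MMS1 groups were thus clearly apart, while those of RPMI8226 overlapped. The MMS1 change was -0.89 ± 0.135 (SE, n = 3 per group), a 1.85-fold fall (limma, adjusted p = 0.000857). The second, 215779_s_at, read 6.82, 6.86 and 6.69 with the control and 6.27, 6.19 and 5.78 with the sponge, a change of -0.71 ± 0.153 (adjusted p = 0.00897). A probe set that names H2BC11 alone, 214502_at, was not called, at -0.18 ± 0.152 (adjusted p = 0.552), so the probe sets naming this gene disagree.

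H1-10 is a linker histone that binds DNA between nucleosomes. It read 9.33, 9.16 and 9.38 on the MMS1 control arrays and 8.69, 8.74 and 8.82 on the sponge arrays, with no overlap. In RPMI8226 it read 9.53, 9.59 and 9.61 on the control arrays and 9.87, 9.79 and 9.86 on the sponge arrays, again with no overlap but in the other direction. The fall in MMS1 was -0.54 ± 0.096 (adjusted p = 0.00258) and the change in RPMI8226 0.26 ± 0.096, which was not called (adjusted p = 0.245). The antisense RNA H1-10-AS1 had changes of -0.41 and 0.35 in the respective lines, neither called (adjusted p = 0.161 and 0.386).

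Probe sets of H2A, H3 and H2B made up the rest of those that fell in MMS1. H2AC14 (208583_x_at) read 8.82, 8.69 and 8.85 with the control and 8.46, 8.42 and 8.44 with the sponge, a change of -0.35 ± 0.096 (adjusted p = 0.0339). Probe set 206110_at, which names 10 H3 genes, read 7.23, 7.14 and 7.26 with the control and 6.94, 6.65 and 6.83 with the sponge (-0.41 ± 0.105, adjusted p = 0.0256). H2BC4 (236193_at) read 5.70, 5.59 and 5.71 with the control and 5.39, 5.18 and 5.27 with the sponge (-0.38 ± 0.105, adjusted p = 0.0331). In each the groups did not overlap. Probe set 207156_at, which names 6 H2A genes, changed by -0.55 ± 0.158 (adjusted p = 0.0448). Related probe sets disagree with 206110_at. Probe set 214646_at, which also names 10 H3 genes, had MMS1 means of 5.8 with the control and 5.87 with the sponge. Of the genes 206110_at names, H3C7 alone (208506_at) had 6.2 and 6.49, and H3C2 alone (208576_s_at) 6.18 and 6.57. The other probe set naming 6 H2A genes, 214542_x_at, had 8.65 and 8.42. None of these was called.

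The members that rose in MMS1 were H2AC25 and H3C3. H2AC25 (231681_x_at), an H2A gene on chromosome 1, read 5.12, 5.33 and 5.27 with the control and 5.94, 5.69 and 5.73 with the sponge (0.54 ± 0.127, adjusted p = 0.0142). Its other probe set, 221582_at, changed by 0.12 ± 0.126 and was not called (adjusted p = 0.65). H3C3 read 5.33, 5.44 and 5.26 with the control and 6.03, 5.61 and 5.76 with the sponge (0.46 ± 0.117, adjusted p = 0.0241). Both lay entirely above the controls. No H4 probe set was called in MMS1; the smallest p was that of H4C8 (232035_at), at -0.73 ± 0.233 (adjusted p = 0.0684). Its signal was at the lower bound of 4 on MMS1 sponge replicate 2, so this change and its error are not exact.

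Leaving out single arrays ended several of these MMS1 calls. The count of 7 that fell became 3 without MMS1 control replicate 1 or 3, or without MMS1 sponge replicate 2 or 3. Over all probe sets 3339 fell, and 2056 to 2459 in those fits. The count of 2 that rose became 0 without control replicate 1, and 1 without control replicate 3 or sponge replicate 1. Over all probe sets 2296 rose, and 1565 to 1725 in those fits. H2AC25 was lost without control replicate 1 (adjusted p = 0.0675), and H3C3 without control replicate 1 or 3 or sponge replicate 1 (0.0629 to 0.0943). The call of 206110_at was lost without control replicate 1 or 3 or sponge replicate 2 or 3 (0.0549 to 0.104), and that of H2BC4 without those or control replicate 2 (0.055 to 0.117). H2AC14 was lost without those 4 arrays or without RPMI8226 control replicate 2 or 3 (0.0501 to 0.122). Probe set 207156_at was lost without any MMS1 control array, sponge replicate 2 or 3, RPMI8226 control replicate 3 or RPMI8226 sponge replicate 2 (0.0543 to 0.155). Both H2BC11/H2BC8 probe sets and H1-10 remained called whichever array was left out, MMS1 sponge replicate 1 with its low 18S signal included.

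**Figure D1:**
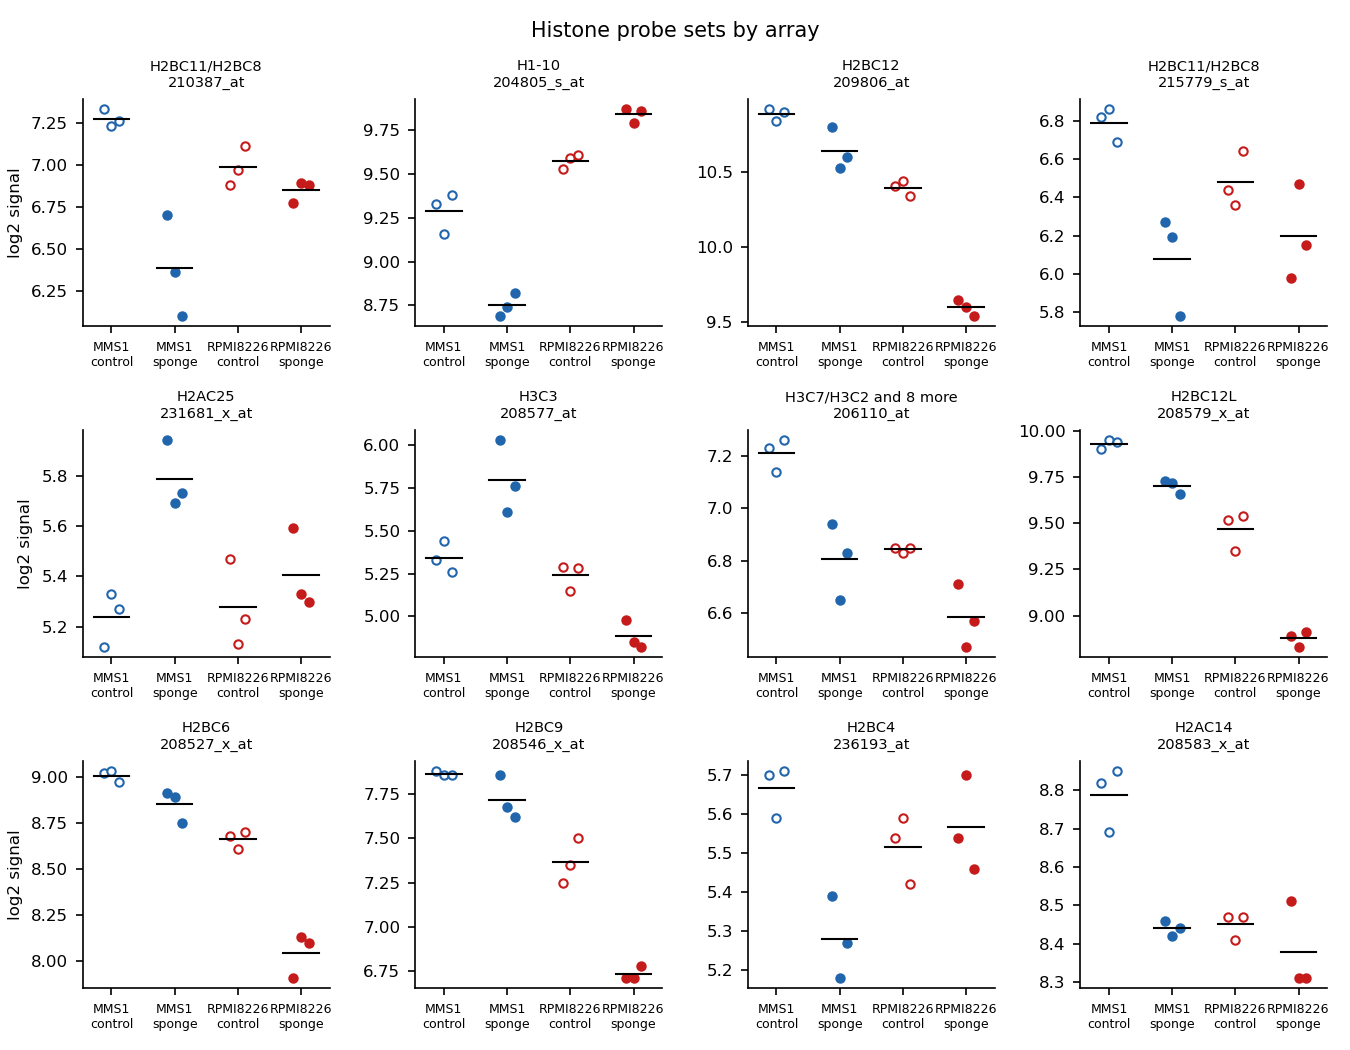
Log2 signal (vertical axis, own range per panel) of 12 histone probe sets on each array; open points are control-sponge arrays, filled points miR-16-sponge arrays, blue MMS1, red RPMI8226, and bars are group means. H2BC11/H2BC8 and H1-10 show the MMS1 sponge arrays below the controls, and H2BC12 shows the RPMI8226 sponge arrays, between 9.54 and 9.65, below every other array.

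In RPMI8226 the members called were H2B genes, and each fell. Of 78 histone probe sets 4 fell and 0 rose (limma), where 0.172% of all probe sets tested fell and 0.0238% rose. At an unadjusted p under 0.05 there were 21 of the 78 in either direction (26.9%), and 13.7% of all probe sets. The median change of the 78 was -0.044 and that of all probe sets -0.016. The 3 sponge arrays lay below the 3 controls for 19 members (24.4%, and 14.6% of all probe sets), and above them for 4 (5.13%, and 7.27% of all probe sets). No member was called in both lines, a count that was not made over all probe sets.

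H2BC12 read 10.41, 10.44 and 10.34 on the RPMI8226 control arrays and 9.65, 9.60 and 9.54 on the sponge arrays. On MMS1 it read 10.92, 10.84 and 10.90 with the control and 10.80, 10.53 and 10.60 with the sponge. In RPMI8226 the groups lay far apart, and in MMS1 they did not overlap but lay close. The RPMI8226 change was -0.80 ± 0.099, a 1.74-fold fall (adjusted p = 0.00581), and the MMS1 change was -0.24, not called. The RPMI8226 call was lost when the 6 arrays of that line alone were fitted (adjusted p = 0.0811, with a range over all alternatives from 7.02e-07 to 0.0811).

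H2BC12L, on chromosome 21, H2BC6 and H2BC9 are further H2B genes. H2BC12L (208579_x_at) read 9.52, 9.35 and 9.54 with the control and 8.89, 8.83 and 8.91 with the sponge in RPMI8226 (-0.59 ± 0.092, adjusted p = 0.0305). H2BC6 (208527_x_at) read 8.68, 8.61 and 8.70 with the control and 7.91, 8.13 and 8.10 with the sponge (-0.61 ± 0.098, adjusted p = 0.0318). H2BC9 (208546_x_at) read 7.25, 7.35 and 7.5 with the control and 6.71, 6.71 and 6.78 with the sponge (-0.63 ± 0.102, adjusted p = 0.033). In all 3 the groups did not overlap. Their calls were nevertheless lost when any array other than an MMS1 sponge array was left out (adjusted p from 0.0517 to 0.162), which left H2BC12 as the 1 member called. Over all probe sets 94 fell with every array, and 14 to 28 in those fits.

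In MMS1 the same probe sets were not called. H2BC12L read 9.90, 9.95 and 9.94 with the control and 9.73, 9.72 and 9.66 with the sponge, and H2BC6 read 9.02, 9.03 and 8.97 with the control and 8.91, 8.89 and 8.75 with the sponge. H2BC9 read 7.88, 7.86 and 7.86 with the control and 7.86, 7.68 and 7.62 with the sponge. The MMS1 changes were -0.23, -0.16 and -0.15. The differences between the lines' effects for these 3 probe sets, -0.36, -0.45 and -0.48, were not called either.

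In the other classes no member was called in RPMI8226. The smallest p for linker histones was that of H1-2 (-0.38 ± 0.098, adjusted p = 0.124). For H2A it was that of H2AC19/H2AC18 (214290_s_at, -0.36 ± 0.096, adjusted p = 0.136). For H3 it was that of H3C3 (-0.36 ± 0.117, adjusted p = 0.206), and for H4 that of 207046_at, which names 14 H4 genes (-0.22 ± 0.131, adjusted p = 0.494).

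H2B was the class with members called lower in both lines, though through different probe sets. Of its 20 probe sets 3 fell in MMS1 (15%) and 4 in RPMI8226 (20%), where 6.11% and 0.172% of all probe sets fell. A negative change was seen for 17 in each line, 14 of them in both. Over all 54613 probe sets 29342 were negative in MMS1 and 29017 in RPMI8226. The median H2B change was -0.178 in MMS1 and -0.388 in RPMI8226, beside -0.022 and -0.016 over all probe sets. The H1 medians were 0.060 and 0.024, those of H2A -0.153 and -0.059, those of H3 0.064 and -0.004, and those of H4 -0.037 and -0.026. The 2 sponge comparisons share no arrays. Over all 78 members, 29 were negative in both lines, 10 positive in both and 39 of opposite sign. The same counts were not made over all probe sets.

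**Figure D2:**
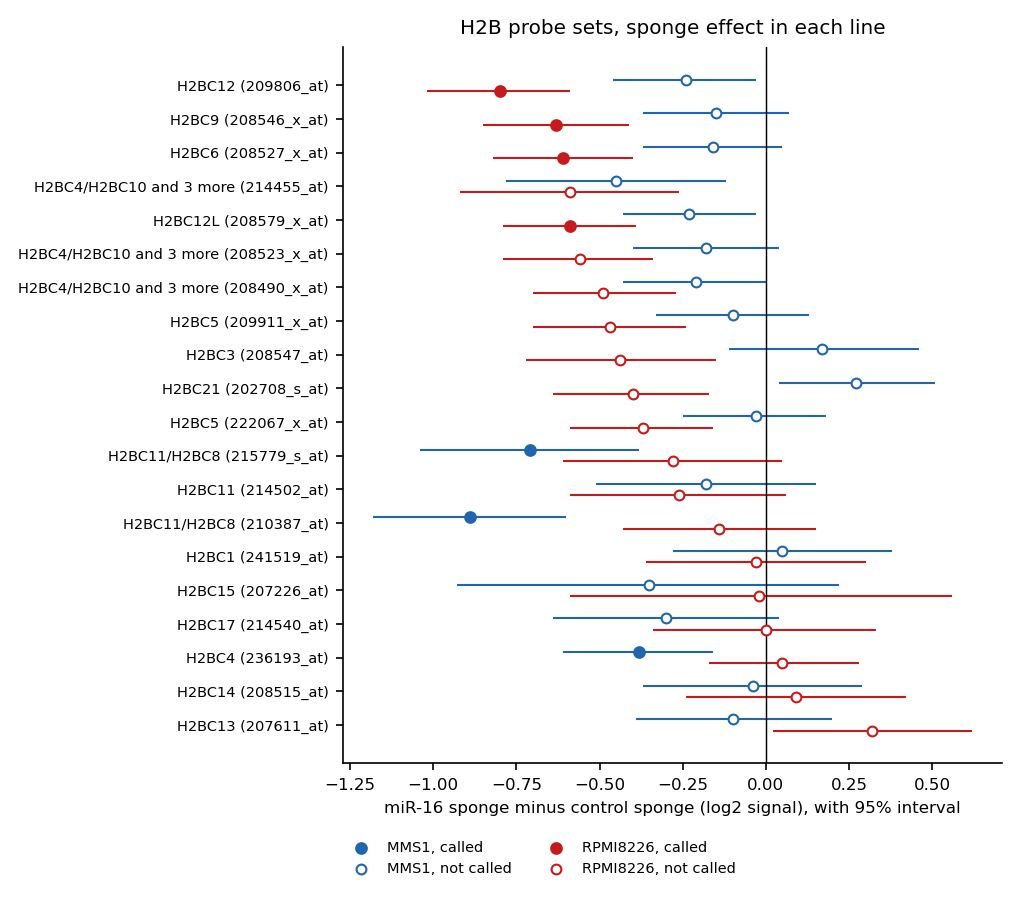
Sponge minus control change in log2 signal of the 20 H2B probe sets (horizontal axis, with the 95% interval), in MMS1 (blue) and RPMI8226 (red); filled points are called. In RPMI8226 H2BC12 lies furthest left at -0.80, and the probe sets that fell in MMS1, H2BC11/H2BC8 and H2BC4, are others than those that fell in RPMI8226.

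The suffix x_at marks probe sets whose probes may bind several similar transcripts. The changes of the 7 H2B probe sets with this suffix ran from -0.63 to -0.37 in RPMI8226 and from -0.23 to -0.03 in MMS1. They may read the same RNAs in part, so they are not 7 separate observations. The 13 H2B probe sets without the suffix had medians of -0.242 in MMS1, where 3 fell, and -0.139 in RPMI8226, where 1 fell.

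Averaged over the lines, 12 histone probe sets fell and 1 rose, where 5.08% of all probe sets fell and 2.12% rose. Of the 12, 10 were H2B, and 4 of the 12 were called in neither line alone. The smallest p belonged to H2BC12 (-0.52 ± 0.070, adjusted p = 0.000642), H2BC12L (-0.41 ± 0.065, 0.00208), H2BC6 (-0.39 ± 0.069, 0.00454), H2BC11/H2BC8 (210387_at, -0.51 ± 0.096, 0.00579) and H2BC9 (-0.39 ± 0.072, 0.00582). The remaining 2 of the 12 were the multi-gene probe sets of H3 (206110_at, -0.33) and H2A (207156_at, -0.41). H2AC25 (231681_x_at) rose by 0.34 ± 0.089 (adjusted p = 0.037). That call was lost without MMS1 control replicate 1 or 3, MMS1 sponge replicate 1 or 3, RPMI8226 control replicate 2 or 3 or RPMI8226 sponge replicate 1 or 2 (0.056 to 0.0949). Of the 12 that fell, 5 were among the probe sets naming 1 gene. The average uses the same arrays as the 2 sponge comparisons.

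The difference between the lines' responses was tested directly, as the RPMI8226 effect minus the MMS1 effect. It was called for 2 members upward and 3 downward, where 2.00% and 3.10% of all probe sets were called. H1-10 fell in MMS1 and not in RPMI8226, a difference of 0.80 ± 0.135 (adjusted p = 0.00388). H3C3 rose in MMS1 and was at -0.36 in RPMI8226, a difference of -0.82 ± 0.166 (adjusted p = 0.0126). In RPMI8226 it read 5.29, 5.15 and 5.28 with the control and 4.98, 4.85 and 4.82 with the sponge, so that its groups were apart in both lines and in opposite order.

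H2BC21, an H2B gene on chromosome 1, was called in neither line but differed between them by -0.68 ± 0.154 (adjusted p = 0.023). It read 7.10, 7.26 and 7.13 on the MMS1 controls and 7.44, 7.55 and 7.32 with the sponge. On RPMI8226 it read 7.10, 7.23 and 7.40 with the control and 6.75, 6.88 and 6.87 with the sponge. The sponge arrays thus lay above the controls in MMS1 and below them in RPMI8226. H2BC12 differed by -0.56 ± 0.140 (adjusted p = 0.0367) and H2BC11/H2BC8 (210387_at) by 0.75 ± 0.191 (adjusted p = 0.04). Whereas H1-10 and H3C3 kept the call whichever array was left out, H2BC12 lost it without any array other than an MMS1 sponge array (0.0567 to 0.0899). Probe set 210387_at lost it without any array other than MMS1 sponge replicate 1 (0.0542 to 0.0938). H2BC21 lost it without MMS1 control replicate 1 or 3, MMS1 sponge replicate 2, RPMI8226 control replicate 2 or 3 or RPMI8226 sponge replicate 1 (0.0533 to 0.064).

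**Figure D3:**
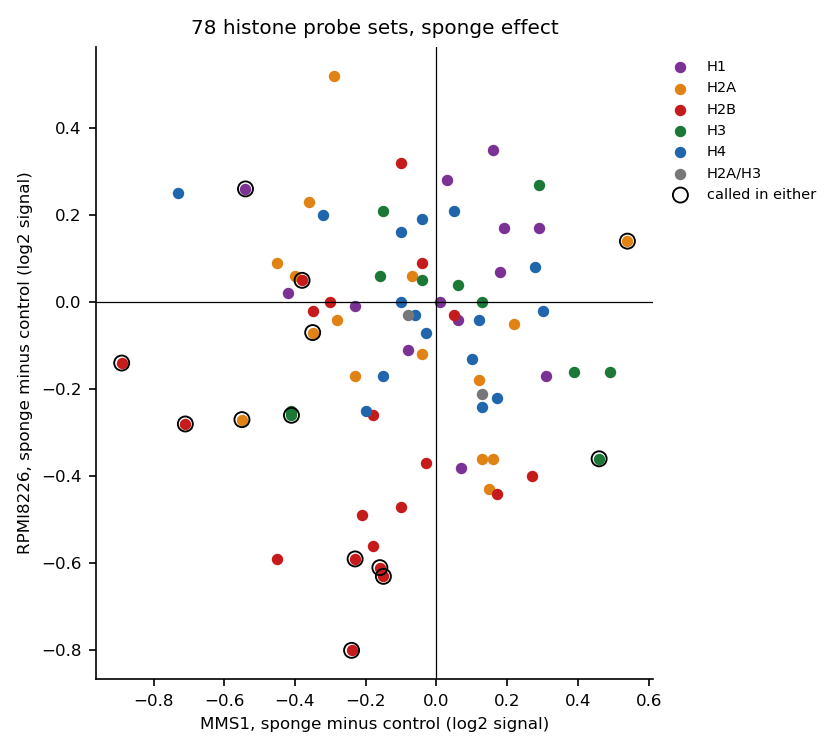
Sponge minus control change (log2 signal) of the 78 histone probe sets in MMS1 (horizontal axis) against RPMI8226 (vertical axis), coloured by histone class; rings mark members called in either line. The H2B points (red) gather below 0 on both axes, 14 of 20 being negative in both lines.

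The linker histone genes were followed one by one. H1-2, a replication-dependent linker histone, read 9.09, 8.98 and 8.92 on the MMS1 controls and 9.07, 9.08 and 9.05 with the sponge (change 0.07, adjusted p = 0.756). On RPMI8226 it read 8.38, 8.18 and 8.39 with the control and 8.0, 7.92 and 7.89 with the sponge. Its RPMI8226 sponge arrays were thus the lowest of the 12. The other replication-dependent linker histones, H1-1, H1-3, H1-4 and H1-5, changed by 0.16, 0.19, 0.31 and -0.23 in MMS1 and by 0.35, 0.17, -0.17 and -0.01 in RPMI8226, none of them called. For the germ-cell linker histones H1-6, H1-7 and H1-8 and the pseudogene H1-9P, changes ran from -0.42 to 0.29 in MMS1 and from -0.11 to 0.28 in RPMI8226, and none was called.

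Between the lines, the members called lower in RPMI8226 were mostly H2B genes, with H1-2, while no H4 probe set was called among the controls. Among control-sponge arrays 13 of 78 members were lower in RPMI8226 than in MMS1 and 0 higher (limma), where 2.73% of all probe sets were lower and 5.45% higher. At an unadjusted p under 0.05 there were 20 members (25.6%) in either direction, and 19.7% of all probe sets. The members' median was -0.123, beside 0.028 over all probe sets. Of the 13, 9 were H2B, and these 9 included all 7 H2B probe sets with the suffix x_at. H1-2 differed by -0.68 ± 0.098 (adjusted p = 0.00064), H2BC12L by -0.46 ± 0.092 (0.00734), H2BC12 by -0.49 ± 0.099 (0.00753), H2BC9 by -0.50 ± 0.102 (0.00757) and H2BC5 (209911_x_at) by -0.47 ± 0.105 (0.0132). The count of 13 depended on single arrays: it was 5, 6 and 8 without MMS1 control replicates 1, 2 and 3, and 5, 4 and 7 without RPMI8226 control replicates 1, 2 and 3. Over all probe sets 1491 were lower, and 901 to 1207 in these fits. H1-2, H2BC12L, H2BC12 and H2BC9 stayed called in each of these. H2BC5 lost its call without MMS1 control replicate 3 or RPMI8226 control replicate 1 or 2 (0.0522 to 0.0604).

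Among miR-16-sponge arrays the difference was called for more members. Lower in RPMI8226 were 19 and higher 4, where 7.72% of all probe sets were lower and 10% higher. The members' median was -0.074, beside 0.049 over all probe sets. H1-2 differed by -1.13 ± 0.098, a 2.18-fold difference (adjusted p = 7.88e-06), and H2BC12 by -1.05 ± 0.099 (1.57e-05). H2BC9 followed at -0.98 ± 0.102 (3.37e-05), H2BC12L at -0.82 ± 0.092 (6.09e-05) and the H2A gene H2AC6 at -1.01 ± 0.119 (9.21e-05). H2AC6 read 7.46, 7.08 and 7.27 in MMS1 and 6.22, 6.11 and 6.46 in RPMI8226, so that the sponge groups lay wide apart. Of the 11 H3 probe sets 4 were lower, among them H3C11 at -0.95 and H3C2 at -0.81.

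Higher in RPMI8226 among the sponge arrays were H1-10 by 1.09 ± 0.096 (adjusted p = 8.59e-06), H4C7/H4C6 (208026_at) by 0.53 ± 0.151 (0.0284), H2AC17 by 0.60 ± 0.172 (0.0292) and H2BC11/H2BC8 (210387_at) by 0.46 ± 0.135 (0.0317). The H2BC11 probe set 214502_at went the other way in the same comparison, at -0.73 ± 0.152 (adjusted p = 0.00475). Probe set 208551_at, which names H4C7 alone, had sponge-group means of 5.67 in MMS1 and 5.53 in RPMI8226 and was not called. Over the 12 arrays 208026_at ran from 4.30 to 5.35 and H2AC17 (214481_at) from 4.53 to 5.61, not far above the lower bound. Of the 4, H1-10 alone kept its call in every fit without 1 array. H4C7/H4C6 lost it without MMS1 sponge replicate 1 or RPMI8226 sponge replicate 1 or 3 (0.0802 to 0.111), H2AC17 without MMS1 sponge replicate 1 or 2 or any RPMI8226 sponge array (0.0516 to 0.11), and 210387_at without MMS1 sponge replicate 2 or 3 or any RPMI8226 sponge array (0.0531 to 0.114). Across the control and sponge comparisons of the lines, which share no arrays, 11 members were lower in RPMI8226 in both, 9 of them H2B. Of these 9, 7 had the suffix x_at and may read the same RNAs in part. The count called lower in both was not made over all probe sets. H1-10-AS1 was higher in RPMI8226 among the sponge arrays by 0.53 ± 0.168 (adjusted p = 0.0435).

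**Figure D4:**
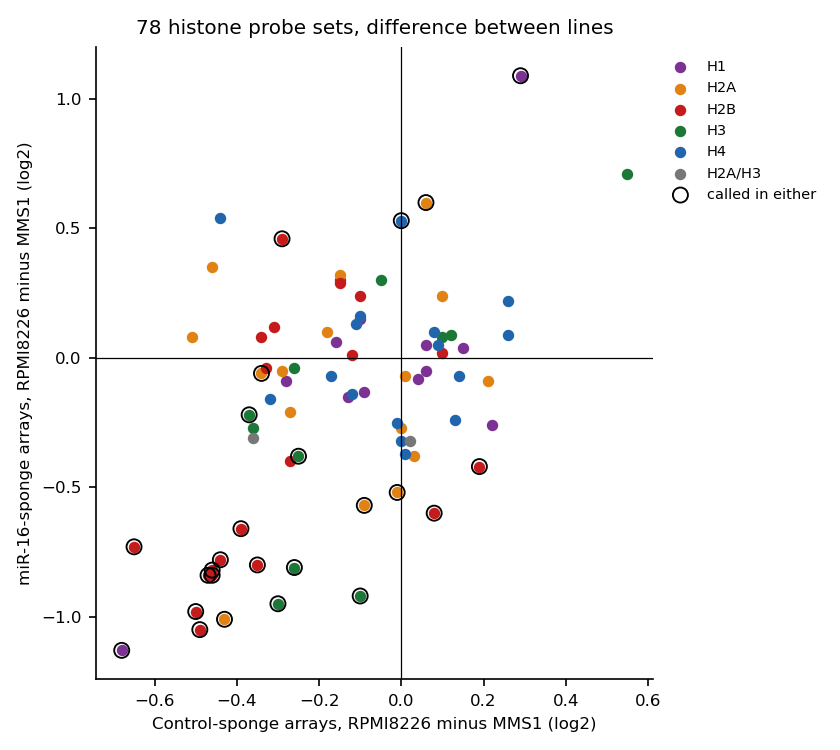
RPMI8226 minus MMS1 difference (log2 signal) of the 78 histone probe sets among control-sponge arrays (horizontal axis) and among miR-16-sponge arrays (vertical axis), coloured by histone class; rings mark members called in either. H1-2 and most ringed H2B points lie at the lower left, and H1-10 stands alone at the top at 1.09.

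The promoters of 8 of the members described are shown, a selection. The DNA in front of many H2B genes carries an octamer element, which many H2A genes carry too, and many histone genes are transcribed from shared, divergent stretches. Each line gives the 250 bases before the RefSeq start site in GRCh38.p14, 5′ to 3′ on the gene's strand. Capitals mark, on either strand, the octamer ATTTGCAT bound by POU2F1, the TATA box TATAAA, the CCAAT box CCAAT and the H1 box AAACACA; where 2 matches overlap, the capitals run together:
H2BC12, chr6:27146856-27147105, minus strand: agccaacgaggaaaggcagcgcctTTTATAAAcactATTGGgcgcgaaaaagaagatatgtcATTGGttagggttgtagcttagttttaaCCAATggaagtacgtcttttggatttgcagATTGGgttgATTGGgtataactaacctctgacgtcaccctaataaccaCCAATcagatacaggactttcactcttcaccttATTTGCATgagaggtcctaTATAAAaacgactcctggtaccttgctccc
H2BC6, chr6:26183511-26183760, plus strand: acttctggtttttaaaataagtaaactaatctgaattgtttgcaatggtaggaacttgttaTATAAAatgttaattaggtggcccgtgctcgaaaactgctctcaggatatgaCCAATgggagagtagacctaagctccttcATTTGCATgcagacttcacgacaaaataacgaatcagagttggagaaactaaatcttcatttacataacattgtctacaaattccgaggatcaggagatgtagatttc
H2BC9, chr6:26251364-26251613, plus strand: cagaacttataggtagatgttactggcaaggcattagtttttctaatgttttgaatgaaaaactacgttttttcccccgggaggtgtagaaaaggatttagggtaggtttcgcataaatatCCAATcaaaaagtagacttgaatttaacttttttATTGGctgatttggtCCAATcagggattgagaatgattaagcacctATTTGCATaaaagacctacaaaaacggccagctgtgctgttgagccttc
H2BC11, chr6:27132796-27133045, minus strand: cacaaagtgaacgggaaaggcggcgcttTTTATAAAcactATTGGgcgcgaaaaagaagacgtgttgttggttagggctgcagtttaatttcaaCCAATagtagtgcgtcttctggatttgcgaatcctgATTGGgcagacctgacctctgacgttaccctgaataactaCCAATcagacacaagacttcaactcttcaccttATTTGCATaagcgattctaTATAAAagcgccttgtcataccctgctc
H2BC8, chr6:26216689-26216938, minus strand: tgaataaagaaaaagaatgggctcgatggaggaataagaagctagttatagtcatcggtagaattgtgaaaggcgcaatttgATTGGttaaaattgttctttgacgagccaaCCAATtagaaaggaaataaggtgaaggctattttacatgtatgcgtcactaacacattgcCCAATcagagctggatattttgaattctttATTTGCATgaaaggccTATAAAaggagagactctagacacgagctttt
H1-2, chr6:26056471-26056720, minus strand: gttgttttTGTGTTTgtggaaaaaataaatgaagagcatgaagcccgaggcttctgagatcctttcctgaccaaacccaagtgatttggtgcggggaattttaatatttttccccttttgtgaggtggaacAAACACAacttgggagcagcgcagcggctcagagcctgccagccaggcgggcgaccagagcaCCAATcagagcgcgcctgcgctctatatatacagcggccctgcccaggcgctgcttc
H1-10, chr3:129316287-129316536, minus strand: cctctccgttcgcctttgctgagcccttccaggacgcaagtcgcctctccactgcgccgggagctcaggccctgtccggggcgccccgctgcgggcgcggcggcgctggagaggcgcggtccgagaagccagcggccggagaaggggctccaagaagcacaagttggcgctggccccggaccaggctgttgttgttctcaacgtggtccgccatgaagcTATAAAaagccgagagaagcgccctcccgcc
H3C3, chr6:26045134-26045383, plus strand: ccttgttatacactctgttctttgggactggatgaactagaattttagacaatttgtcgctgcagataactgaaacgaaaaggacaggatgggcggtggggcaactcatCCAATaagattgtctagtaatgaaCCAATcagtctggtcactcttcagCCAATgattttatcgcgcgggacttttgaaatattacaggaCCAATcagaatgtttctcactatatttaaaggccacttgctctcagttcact
The first 3 belong to genes whose probe sets fell in RPMI8226, H2BC11 and H2BC8 share the probe sets that fell in MMS1, and the last 3 are the linker and H3 genes described above.

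RefSeq windows of 300 bases, 250 before and 50 after the start, were found for 60 of the 69 genes, 65 windows in all. The octamer was in 77.8% of 18 H2B windows and 61.5% of 13 H2A windows, and in none of the 10 H1 or 13 H4 windows. It was in 1 of the 11 H3 windows, that of H3C4, which is the same stretch as the window of H2AC7. Over all 35116 windows the share was 1.77%. The H2B windows without an exact match were both of H2BC5 and those of H2BC13 and H2BC15, and H2BC5 was among the genes lower in RPMI8226. The octamer of H2BC12 began 49 bases before the start, that of H2BC9 also 49, that of H2BC8 48, that of H2BC11 47 and that of H2BC6 108.

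The H1 box was in 70.0% of the 10 H1 windows, in none of the other histone windows and in 5.64% of all windows. H1-2 carried it and H1-10 did not. The TATA box was in 63.1% of the 65 histone windows (11.5% of all windows) and the CCAAT box in 81.5% (34.6% of all windows). Every H2A, H2B and H3 window held a CCAAT box, against 23.1% of H4 windows. These are matches of letters in a window and show no binding. Among the genes with a window, 9 pairs on chromosome 6 had start sites under 500 bases apart on opposite strands, among them H2BC11 with H2AC11 (248 bases), H2BC8 with H2AC8 (233) and H2BC4 with H2AC6 (246). All but H3C4 with H2BC7 joined an H2A with an H2B gene. H2AC11, the neighbour of H2BC11, is named with other genes by 207156_at, which was called lower in MMS1 (-0.55), and by 214542_x_at, which was not. H2AC8, the neighbour of H2BC8, changed by -0.36 in MMS1 and 0.23 in RPMI8226. H2AC6, the neighbour of H2BC4, changed by 0.15 and -0.43, and neither H2AC8 nor H2AC6 was called in either line.

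Genes that make, carry and use histones were taken from lists, with each gene represented by the probe set of highest mean among those naming it alone. Of 31 genes measured for histone mRNA synthesis and 3′ end processing, 3 fell and 1 rose in MMS1, and none was called in RPMI8226. These shares, 9.68% and 3.23%, lay near those of all 19775 genes, 8.08% and 4.34%. CASP8AP2 (FLASH), a histone transcription and 3′ end processing factor that works with NPAT, fell by 0.47 (adjusted p = 0.00842), the histone H4 transcription factor HINFP fell by 0.40 (0.0405) and CDK2 fell by 0.40 (0.0367). The exonuclease ERI1, which trims histone mRNA ends, rose by 0.38 (0.0276). Of the 3 CDK2 probe sets 2 were called, and of the 2 ERI1 probe sets 1. SLBP changed by -0.14 in MMS1 and -0.06 in RPMI8226 (adjusted p = 0.588 and 0.897), and NPAT by -0.24 and -0.30 (0.349 and 0.371). The list's medians were -0.104 and -0.115, beside -0.037 and -0.017 over all genes.

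DNA replication genes, whose activity S phase shares with histone synthesis, fell in MMS1: 15 of 31 measured fell and 0 rose (limma), with a list median of -0.36. Of all 19775 genes 1597 fell and 858 rose there. Thymidine kinase TK1 fell by 0.97 (adjusted p = 1.59e-05), the helicase component CDC45 by 0.95 (2.73e-05), the helicase subunit MCM6 by 0.95 (0.000108), MCM10 by 0.83 (0.000179) and MCM7 by 0.72 (0.000654). Of the 2 MCM6 probe sets 1 was called. In RPMI8226 none of the 31 was called, with a median of -0.059, where 40 of all genes fell and 3 rose. The difference between the lines was called upward for 8 of the 31 (25.8%) and downward for 0, beside 2.63% and 3.27% of all genes. The part of the DNA replication genes in the histone changes was not tested. Nor was that of the actin and GAPDH 3'-to-5' differences, which moved in opposite directions with the sponge in MMS1.

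Histone chaperones hand histones to new DNA. Of 28 measured 11 fell and 2 rose in MMS1 and none was called in RPMI8226, with medians of -0.296 and -0.164. The MMS1 shares were 39.3% and 7.14%, beside 8.08% and 4.34% of all genes. In RPMI8226 0.202% of all genes fell and 0.0152% rose. MCM2 is on this list and on that of DNA replication. ASF1A fell by 0.66 (adjusted p = 0.00109), ASF1B by 0.72 (0.0014), DNAJC9 by 0.66 (0.00142), CHAF1A by 0.65 (0.00243) and HJURP, the chaperone of the centromeric histone, by 0.54 (0.00292). Of the 3 DNAJC9 probe sets 2 were called, and of the 4 CHAF1A probe sets 3. NAP1L1 rose by 0.40 (0.0152) and NPM1 by 0.31 (0.0467), though of their 7 and 3 probe sets only 3 and 1 were called. Of 10 replacement and variant histones measured 1 fell (10%) and 3 rose (30%) in MMS1, beside 8.08% and 4.34% of all genes. None was called in RPMI8226. H2AX, the variant phosphorylated at DNA breaks, fell by 1.03 (adjusted p = 5.76e-05) on its brightest probe set, but its 4 probe sets ranged from -1.03 to 1.02, with 2 lower and 1 higher. H2AJ rose by 0.90 (4.92e-05), H2BW2 by 0.62 (0.031) and H2AZ2 by 0.42 (0.0283), each on 1 probe set, and the 4 probe sets of H2AJ ran from -0.33 to 0.90. Of 14 plasma cell genes none was called in either line (limma). Of 14 erythroid genes 4 rose (28.6%) and 5 fell (35.7%) in MMS1, beside 4.34% and 8.08% of all genes. In RPMI8226 2 rose (14.3%) and 1 fell (7.14%), beside 0.0152% and 0.202%. The erythroid array medians moved with the groups: 9.07 to 9.16 with the control and 8.49 to 8.73 with the sponge in MMS1, and 9.20 to 9.30 and 9.44 to 9.49 in RPMI8226. The part of this in the histone changes was not tested.

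**Figure D5:**
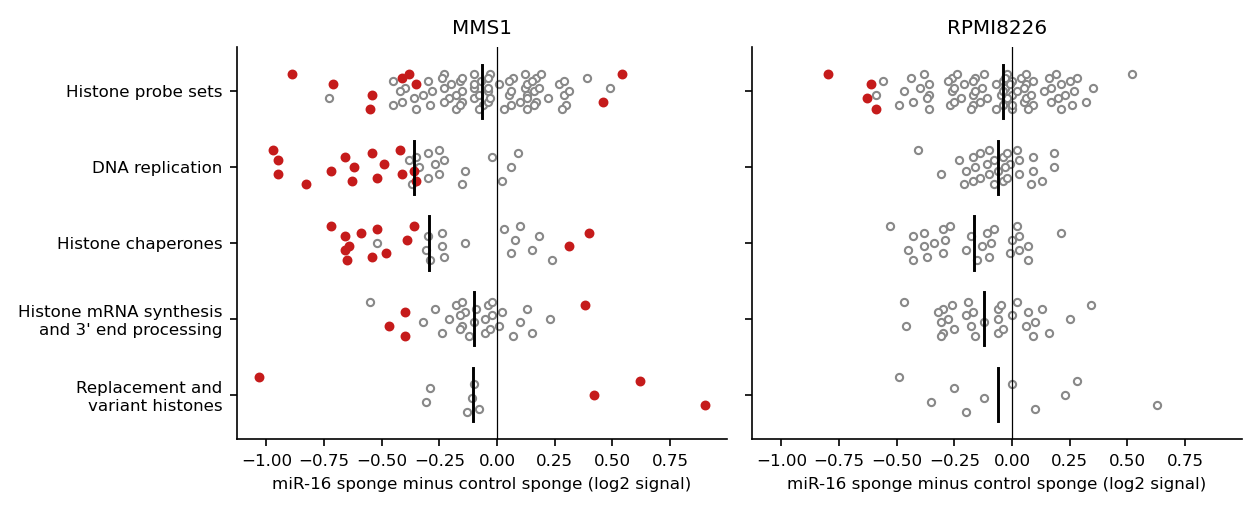
Sponge minus control change (log2 signal, horizontal axis) in MMS1 (left) and RPMI8226 (right) of the 78 histone probe sets and of the genes of 4 lists, 1 point each; red points are called, open points are not, and black bars are medians. In MMS1 the DNA replication median lies at -0.36 and that of the histone probe sets at -0.065; in RPMI8226 red points appear among the histone probe sets alone.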

How the data were processed

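RNA of 12 samples was measured on Affymetrix arrays. Each deposited value is the log2 signal of a probe set on an array, with a lower bound of 4; the summarization and scaling behind them are not given in the sources used here. Platform gene symbols were brought to current names through a RefSeq gene table of GRCh38.p14. After 62 control probe sets were left out, 54613 were fitted in limma 3.58.1 (R 4.3.3) with 1 mean per group, 8 residual and 4.92 prior degrees of freedom. Tests were two-sided and moderated, with Benjamini-Hochberg adjustment over all probe sets of a comparison and a threshold of 0.05, and intervals are at 95%. The fit was tested on simulated data. Tables and figures used Python 3.11.15, pandas 2.3.3, numpy 2.4.6 and matplotlib 3.10.9.

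The members, lists, tests and alternatives were chosen with earlier results of these data known. Named were up to 10 called members each way per sponge comparison, up to 5 in the other comparisons, every H1 gene, the smallest p of each class with no call, up to 5 called genes each way per list, SLBP and NPAT. H2BC11 alone, H2AC6, H2AC8, H3C2, H3C11 and H2BC21 values were added where a result turned on them. Alternatives were quantile normalization, probe sets above the median level, a replicate block, fits of the compared groups alone, a trended robust prior, leaving out each array, probe sets naming 1 gene, no x_at or s_at probe sets, and means over a gene's probe sets. Arrays of 1 group correlated at 0.974 or more and none was identical to another. The number of arrays limits the precision.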

Additional observations from a re-analysis of the deposited data

Results flagged for a closer look

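The sponge effect differed between the lines, by a test of the difference itself (RPMI8226 effect minus MMS1 effect, limma), for 5 histone probe sets, 2 of 78 upward (2.56%) and 3 downward (3.85%). Over all probe sets 2.00% and 3.10% were called, so the counts lay near that background. The differences were 0.80 for H1-10 (204805_s_at), 0.75 for H2BC11/H2BC8 (210387_at), -0.56 for H2BC12 (209806_at), -0.68 for H2BC21 (202708_s_at) and -0.82 for H3C3 (208577_at), on the log2 scale. For H1-10, H2BC21 and H3C3 the changes had opposite signs in the lines, and for H2BC12 and H2BC11/H2BC8 the same sign and different sizes. Groups of 3 arrays were not searched for outlying arrays.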

How the results depend on the processing

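Of 38 named called results 20 kept direction and call under every alternative run, and none of the named results reversed. Both H2BC11/H2BC8 probe sets and H1-10 in MMS1, and H1-2 between the lines, were among the 20. The cause of the shifts below was not tested, apart from the smaller sets that the probe set filters leave.

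Members lower with the sponge in RPMI8226, 4 as reported, numbered 2 with quantile normalization, 13 among probe sets above the median level (the brighter ones), 14 with the trended robust prior, 0 with only the groups compared and 1 without x_at and s_at probe sets. Over all probe sets, where 94 fell as reported, 104 fell with quantile normalization and 2 with only the groups compared. Among the brighter ones 1088 of 27307 fell, and 1475 of all with that prior. The members' median there was -0.131 among the brighter ones. In MMS1 the 7 lower became 4 with only the groups compared, 3 among probe sets naming 1 gene and 4 without x_at and s_at probe sets. The 2 higher became 1 among the brighter ones, 1 with only the groups compared and 1 without x_at and s_at probe sets. Over all probe sets 3339 fell and 2296 rose there as reported, and 2172 and 1563 with only the groups compared. In the average, the 12 lower became 5 with either probe set filter, and the 1 higher became 0 with means over a gene's probe sets and 0 without x_at and s_at probe sets. For the difference between lines, the 2 higher became 1 with either filter. The 3 lower became 9 among the brighter ones, 10 with the trended robust prior and 5 with means over a gene's probe sets. Over all probe sets 1692 were lower there as reported, 2525 among the brighter ones and 2867 with that prior. Between control arrays, 13 lower became 4 without x_at and s_at probe sets, and 0 higher became 1 among the brighter ones and 1 with the trended robust prior. Between sponge arrays, 19 lower became 6 without x_at and s_at probe sets, and the median was -0.218 among the brighter ones. The 4 higher became 2 among the brighter ones, 1 with only the groups compared and 2 among probe sets naming 1 gene. Over all probe sets 5476 were higher there as reported and 3515 with only the groups compared. Without x_at and s_at probe sets the members' median turned from -0.074 to 0.009 between sponge arrays and from -0.031 to 0.028 in the difference between lines. Both shifts were smaller than 0.0867, the SD of the per-array member median within groups. That SD measures the spread between arrays and not the effect of leaving out probe sets.

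Leaving out 1 array at a time gave 3 to 9 lower and 0 to 3 higher in MMS1, 1 to 6 lower in RPMI8226, 10 to 12 lower and 0 to 1 higher in the average, 1 to 4 lower and 1 to 3 higher in the difference, 4 to 14 lower between control arrays, and 17 to 20 lower and 1 to 4 higher between sponge arrays. Over all probe sets the same fits gave 2056 to 3845 lower and 1565 to 2236 higher in MMS1, and 14 to 639 lower in RPMI8226. The average had 1732 to 4047 lower and 793 to 1112 higher, and the difference 1079 to 1813 lower and 690 to 1242 higher. Control arrays gave 901 to 1808 lower, and sponge arrays 3144 to 4180 lower and 3761 to 5365 higher.

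Replicate numbers did not pair the arrays: deviations of same-numbered arrays correlated at -0.0748 to 0.0577 over 18 pairs, those of other arrays at -0.064 to 0.0929 over 36. With the replicate block, 1 member was lower in RPMI8226 and 1 higher in the difference between lines. Over all probe sets the block gave 25 and 841, against 94 and 1094 as reported. Signals near the lower bound of 4 limit what can be seen of dim members, and 3 arrays per group limit the precision.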
